A study of Mus musculus with 16 samples.

Results

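Keratins are the intermediate filament proteins of epithelial cells. Every filament pairs an acidic type I keratin with a basic type II keratin, and the pair in use marks the kind of epithelium. Krt8, Krt18, Krt19 and Krt7 build the filaments of simple epithelia such as the lining of the gut, Krt20 marks the surface cells of the colon, and Krt5, Krt14, Krt4, Krt13, Krt6a and Krt16 belong to stratified squamous epithelia. The family was taken here as every gene symbol made of Krt, a number and at most 1 further letter, which gave 53 of the 31053 genes in the count tables, 28 of them type I and 25 type II. A UMI, a tag that marks 1 captured molecule, was found for 43 of the 53 genes, and 26 had 50 or more UMIs over both libraries together.

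The counts come from single cells of tumour organoids of the mouse colon. In the AOM/DSS model such tumours arise after a mutagen is given together with an agent that inflames the gut lining. The knockout library carried the labels plus TAM and KMT9ko/ko, and the control library carried the labels minus TAM and KMT9wt/wt. Both stood at passage 14, and the names of the count tables give day 5. TAM is not spelled out in the labels, which also give neither the Cre line behind the deletion nor the number of mice or organoid lines. Each group has 8 records, taken as parts of 1 library because the series' design names 2 samples and 1 matrix was given per group. So no difference between the libraries has a replicate check, and every 95% interval is exact and covers counting error only.

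After filtering, 1481 of 2078 barcodes were kept as knockout cells with 37301715 UMIs and 2629 of 3618 as control cells with 68666384 UMIs, at a median of 24184 UMIs in knockout and 24604 UMIs in control cells. N6amt1, which encodes the catalytic subunit of KMT9, stood at 6.11 CPM (UMIs per 1000000) in knockout cells and 34.0 CPM in control cells. No source used here says which exons of N6amt1 were removed. Epcam, an epithelial surface protein, was at 952 CPM in knockout and 899 CPM in control cells. Markers of 3 other cell types were low. The 7 immune markers summed to 15.6 CPM in knockout and 12.0 CPM in control cells, of which Cd74 made 15.1 CPM in knockout and 11.7 CPM in control cells, and 6 fibroblast markers summed to 0.268 CPM in knockout and 0.117 CPM in control cells. The 4 endothelial markers summed to 17.9 CPM in knockout and 7.66 CPM in control cells, of which Cdh5 made 17.3 CPM in knockout and 7.41 CPM in control cells. The part of these cells in the results was not tested. The matrices shared 498 barcodes. Such barcodes made up 325 kept knockout cells (21.9%) and 166 kept control cells (6.31%), and the copy in the other matrix was the smaller one for 319 of the knockout and 157 of the control cells. Ratios of the measured keratins are therefore given also without them.

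The 53 genes lie in 2 clusters of the mouse genome, 27 on chromosome 11 between positions 99232761 and 100269871 and 26 on chromosome 15 between 101347444 and 102032027 (build GRCm38, GENCODE M21). Krt18 is the single type I gene in the type II cluster on chromosome 15, where it neighbours Krt8. The 250 bases before the RefSeq start site (build GRCm38.p6) are shown for Krt8 and Krt18, the neighbours that vary together from cell to cell, for Krt90, which has the largest ratio between the libraries among keratins of 10 CPM or more, and for Krt20, the colonocyte keratin. Each reads 5′ to 3′ on the strand of its gene. Krt8 lies on the minus strand at chr15:102004343-102004592, Krt18 on the plus strand at chr15:102027966-102028215, Krt90 on the minus strand at chr15:101562951-101563200 and Krt20 on the minus strand at chr11:99438154-99438403. Capitals mark matches to the searched motifs.
Krt8: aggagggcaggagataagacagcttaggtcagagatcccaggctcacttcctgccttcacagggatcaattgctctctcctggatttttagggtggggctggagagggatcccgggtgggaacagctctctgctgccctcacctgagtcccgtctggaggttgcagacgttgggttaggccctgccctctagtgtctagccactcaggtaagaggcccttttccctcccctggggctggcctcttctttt
Krt18: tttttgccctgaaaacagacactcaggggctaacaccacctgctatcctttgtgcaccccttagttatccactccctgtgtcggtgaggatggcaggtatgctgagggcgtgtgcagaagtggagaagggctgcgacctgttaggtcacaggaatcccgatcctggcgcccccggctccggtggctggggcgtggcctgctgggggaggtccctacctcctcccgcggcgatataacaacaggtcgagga
Krt90: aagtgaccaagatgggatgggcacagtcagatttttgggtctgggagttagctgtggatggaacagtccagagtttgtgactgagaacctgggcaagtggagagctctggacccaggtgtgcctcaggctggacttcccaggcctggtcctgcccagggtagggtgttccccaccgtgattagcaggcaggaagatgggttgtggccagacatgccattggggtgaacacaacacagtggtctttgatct
Krt20: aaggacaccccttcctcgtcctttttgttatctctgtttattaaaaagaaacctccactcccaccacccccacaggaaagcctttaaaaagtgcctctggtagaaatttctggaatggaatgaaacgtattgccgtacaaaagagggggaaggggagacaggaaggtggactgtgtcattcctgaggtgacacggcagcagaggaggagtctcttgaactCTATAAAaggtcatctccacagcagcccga

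RefSeq promoters were matched for 16 of the 26 keratins with 50 or more UMIs. The TATA box TATAAA, searched on the gene's strand alone, was in 4 of the 16 (25%), against 7.59% of 32851 promoters of the same length. It starts at base -29 in Krt20 and Krt12 and at base -26 in Krt10, counted from the start site, and Krt32 is the fourth. The motif TTTATNG, bound by CDX factors and searched on both strands, was in 3 of the 16 against 9.81% of all promoters. In Krt20 and Krt12 its reverse match starts at base -30 and overlaps the TATA box, so the same letters are counted for both. The AP-1 motif TGANTCA was in 1 of the 16 (Krt13) against 6.75%, and the GC box GGGCGG in 1 (Krt7) against 32.7%, both searched on both strands. A match describes these letters only.

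Simple epithelial keratins made up most of the family in both libraries. Summed over the 53 genes, keratins took 14885 CPM in knockout and 13471 CPM in control cells, or 1.49% of UMIs in knockout and 1.35% in control cells. The 4 simple epithelial genes held 92.4% of keratin UMIs in knockout and 90.4% in control cells. The 21 squamous genes held 5.53% in knockout and 7.54% in control cells, and Krt20 and Krt23 together 1.80% in knockout and 1.79% in control cells. Because 3′ tags count a transcript once whatever its length, CPM of different genes can be set side by side without a length correction. The comparison is rough, since how well each gene is captured was not measured.

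**Figure D1:**
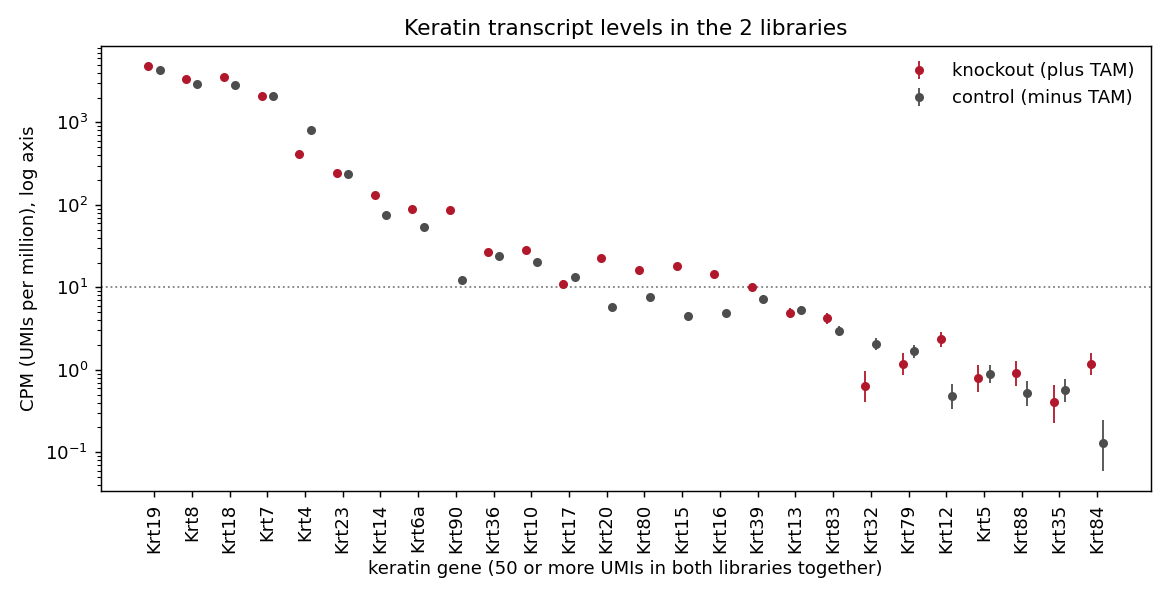
Level of each of the 26 keratins with 50 or more UMIs, in CPM on a log axis, for the knockout (plus TAM) and control (minus TAM) libraries; bars are exact 95% counting intervals and the dotted line is 10 CPM. Krt19, Krt8, Krt18 and Krt7 lie above 2000 CPM in both libraries, and Krt90 shows the widest gap among keratins above the line.

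Krt19, the type I keratin without a tail domain, was the most abundant member at 4789 CPM in knockout and 4304 CPM in control cells, ranking 15 in knockout and 19 in control cells among all detected genes. Krt18 stood at 3518 CPM in knockout and 2828 CPM in control cells (ratio 1.24, interval of the log2 ratio 0.30 to 0.32). Its type II partner Krt8 stood at 3334 CPM in knockout and 2945 CPM in control cells (ratio 1.13). Krt7, a type II keratin of ducts and of some gut tumours, was at 2107 CPM in knockout and 2099 CPM in control cells (log2 ratio 0.01, interval -0.01 to 0.02). None of the 4 reached a 1.5-fold difference. Their log2 ratios without shared barcodes were 0.10 for Krt19, 0.20 for Krt18, 0.06 for Krt8 and -0.04 for Krt7.

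These genes ranged widely from cell to cell. The middle 90% of knockout cells ran from 504 to 10626 CPM for Krt19, and control cells from 681 to 9801 CPM. For Krt18 the same range was 1107 to 7629 CPM in knockout and 1037 to 5165 CPM in control cells. Keratins took a median of 1.15% of the UMIs of a knockout cell and 1.07% of a control cell. A median of 8 keratin genes had a UMI in a cell of either library.

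Squamous keratins differed more between the libraries, and in both directions. Krt4, a type II keratin of the oesophagus and other moist squamous linings, was 1.96-fold lower in the knockout library, at 415 CPM against 814 CPM in control cells (log2 ratio -0.97, interval -1.0001 to -0.9486). Without shared barcodes Krt4 stood at 462 CPM in knockout and 797 CPM in control cells (log2 ratio -0.79). Krt90, a type II keratin counted here with the squamous genes although its role is less clear, was 7.16-fold higher, at 87.7 CPM in knockout and 12.2 CPM in control cells (log2 ratio 2.84, interval 2.73 to 2.95). Its log2 ratio without shared barcodes was 2.82.

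Krt14, the type I keratin of basal squamous cells, stood at 133 CPM in knockout and 76.4 CPM in control cells (ratio 1.74, interval of the log2 ratio 0.74 to 0.85). Krt5, its usual type II partner, had 30 UMIs in knockout and 62 in control cells (0.804 CPM in knockout and 0.903 CPM in control cells). Krt6a, a type II keratin induced in wounded and overgrowing epidermis, stood at 89.8 CPM in knockout and 53.2 CPM in control cells (ratio 1.69). Its type I partner Krt16 stood at 14.7 CPM in knockout and 4.83 CPM in control cells (ratio 3.04), and Krt17, the other type I keratin of wounded skin, at 11.1 CPM in knockout and 13.3 CPM in control cells (log2 ratio -0.26). Krt14, Krt16 and Krt17 share 5.13% to 6.27% of the windows near their 3′ ends with other genes, so a small part of their counts is uncertain. Thus in these libraries Krt6a had far more UMIs than the type I genes it pairs with in skin, and Krt14 far more than Krt5. Krt6b, a close relative of Krt6a, had 7 UMIs in all, 4 in knockout and 3 in control cells.

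A gene counts as measured at 10 CPM or more in at least 1 library. Krt15, a type I keratin of basal and hair bulge cells, stood at 18.2 CPM in knockout and 4.50 CPM in control cells (ratio 4.04). Its knockout level rested on few cells, since 10 of 1481 cells held 82.2% of its UMIs and a single cell held 211. Without the 10 richest cells of each library its log2 ratio was 0.18 in place of 2.01. Krt80, a type II keratin of many epithelia, stood at 16.03 CPM in knockout and 7.73 CPM in control cells (ratio 2.07), with 11.9% of its knockout UMIs in the 10 richest cells. Krt10, the type I keratin of differentiating epidermis, stood at 28.6 CPM in knockout and 20.4 CPM in control cells (ratio 1.40). Krt13, the usual type I partner of Krt4, was low at 4.93 CPM in knockout and 5.32 CPM in control cells.

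Summed, the 21 squamous genes stood at 823 CPM in knockout and 1016 CPM in control cells, and 20 of them without Krt4 at 409 CPM in knockout and 201 CPM in control cells (ratio 2.03). The direction of the squamous sum therefore turned when Krt4 was left out.

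Of the 16 measured keratins, 12 reached 10 CPM in both libraries, and of these 3 were higher in the knockout library by at least 1.5-fold (Krt14, Krt6a and Krt90) and 1 was lower (Krt4). The share of all genes past 1.5-fold under this both-library minimum was not computed. The counts over these 12 genes therefore have no background and support nothing. The other 4 (Krt20, Krt80, Krt15 and Krt16) reached 10 CPM through the knockout library alone, so they could not count as lower, and the totals over all 16 describe these genes and support nothing. With them, 7 were higher in the knockout library and 1 was lower, and 8 were neither. Among all 7910 measured genes 8.12% were higher and 10.7% lower by that size. The median log2 ratio was 0.40 over the 16 keratins and -0.06 over all measured genes. Without shared barcodes the log2 ratios of the others counted as higher were 1.02 for Krt14, 0.94 for Krt6a, 1.15 for Krt80, 1.34 for Krt15 and 1.57 for Krt16, and those of Krt36, Krt10 and Krt17 were 0.34, 0.52 and -0.0044. Leaving out shared barcodes gave 7 higher and 1 lower of 16 keratins, against 6.54% higher and 11.3% lower of 7832 genes. Krt39 fell just outside the minimum at 9.99954 CPM in knockout cells, and Krt17 and Krt16 were just inside it.

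**Figure D2:**
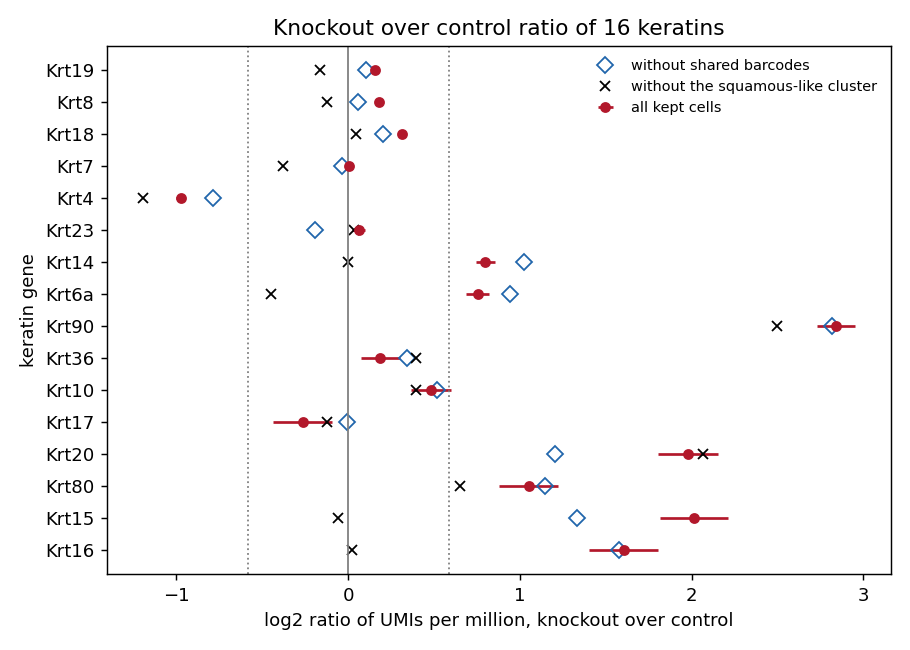
Log2 ratio of CPM, knockout over control, for the 16 measured keratins over all kept cells (filled points with exact 95% counting intervals), without shared barcodes (diamonds) and without the squamous-like cluster of cells (crosses); dotted lines mark 1.5-fold. Krt4 lies left of the lines in all 3 versions and Krt90, Krt20 and Krt80 lie right of them, while Krt14, Krt6a, Krt15 and Krt16 come to lie between the lines without the squamous-like cluster.

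Colonocyte keratins behaved unlike each other. Krt20, the type I keratin of mature surface colonocytes, stood at 22.5 CPM in knockout and 5.71 CPM in control cells (ratio 3.94, interval of the log2 ratio 1.80 to 2.15). Without shared barcodes it stood at 13.9 CPM in knockout and 6.02 CPM in control cells (log2 ratio 1.205), and 54.9% of its knockout UMIs lay in cells with a shared barcode. The 10 richest of 1481 knockout cells held 47.8% of its UMIs, and 8 of these 10 had a shared barcode. Krt23, a type I keratin found in colon tumours, stood at 245 CPM in knockout and 235 CPM in control cells (log2 ratio 0.06). Its log2 ratio without shared barcodes was -0.19, so its direction depended on them.

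Keratins of hair and root sheath were low except for 2 type I genes. Krt36 stood at 27.1 CPM in knockout and 23.8 CPM in control cells (log2 ratio 0.19), and Krt39 at 10.0 CPM in knockout and 7.31 CPM in control cells. Krt83 stood at 4.21 CPM in knockout and 2.94 CPM in control cells, Krt32 at 0.643 CPM in knockout and 2.05 CPM in control cells (24 UMIs in knockout, 141 in control) and Krt35 at 0.402 CPM in knockout and 0.568 CPM in control cells. Krt84 had 44 UMIs in knockout and 9 in control cells, all of them in at most 10 cells of each library. Among the other low members, Krt12 of the cornea stood at 2.36 CPM in knockout and 0.481 CPM in control cells, Krt79 at 1.18 CPM in knockout and 1.69 CPM in control cells and Krt88 at 0.911 CPM in knockout and 0.524 CPM in control cells. A further 17 genes had 1 to 34 UMIs over both libraries. The 10 genes with no UMI were Krt2, Krt9, Krt24, Krt25, Krt26, Krt28, Krt40, Krt71, Krt72 and Krt73.

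The share of cells with a UMI was compared after thinning each cell to 5000 UMIs, which left 1387 knockout and 2487 control cells and dropped 94 shallower knockout and 142 shallower control cells. Krt8 and Krt18 were found in over 99% of cells of both libraries at that depth, Krt8 in 99.8% of knockout and 99.8% of control cells and Krt18 in 99.7% of knockout and 99.9% of control cells. Krt4 was found in 55.3% of knockout cells (Clopper-Pearson interval 52.6% to 57.9%) and 77.1% of control cells (75.4% to 78.8%). Among cells that had it, the mean was 3.51 UMIs in knockout and 4.85 in control cells, so both the share and the level per positive cell were lower in the knockout library. Krt90 was found in 19.1% of knockout cells (17.1% to 21.3%) and 3.86% of control cells (3.14% to 4.69%), and Krt14 in 23.3% of knockout and 12.7% of control cells.

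Krt6a differed less in its share, at 16.5% of knockout and 12.8% of control cells, than in the mean of its positive cells, at 2.59 UMIs in knockout and 1.74 UMIs in control cells. Krt20 was found in 4.33% of knockout and 2.45% of control cells. Before thinning, Krt4 was found in 76.6% of knockout and 91.8% of control cells, Krt90 in 37.1% of knockout and 11.1% of control cells, and Krt14 in 39.6% of knockout and 27.4% of control cells. RNA set free in a droplet run gives stray UMIs. Shares are therefore given also for the Paneth-like cells described below, a tentative name for a cell type not known for Krt14, Krt6a, Krt90 or Krt20. Whether the UMIs in these cells are stray or their own was not tested. Among 525 such control cells, at a median of 18359 UMIs, 8.19% had a Krt14 UMI, 6.86% a Krt6a UMI, 2.48% a Krt90 UMI and 4.19% a Krt20 UMI without thinning. The knockout library had 17 such cells, at a median of 19988 UMIs. Of these, 5 had a Krt14 UMI (29.4%), 1 a Krt6a UMI (5.88%) and 1 a Krt90 UMI (5.88%), and 0 of 17 had a Krt20 UMI. A floor of 3 cells in 17 is 17.6%, a rough limit for that share and not an exact interval. So few cells leave these shares poorly known in the knockout library. Over all kept cells without thinning Krt6a stood at 31.9% in knockout and 29.0% in control cells, and Krt20 stood at 12.8% in knockout and 6.58% in control cells, at medians of 24184 UMIs in knockout and 24604 UMIs in control cells.

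**Figure D3:**
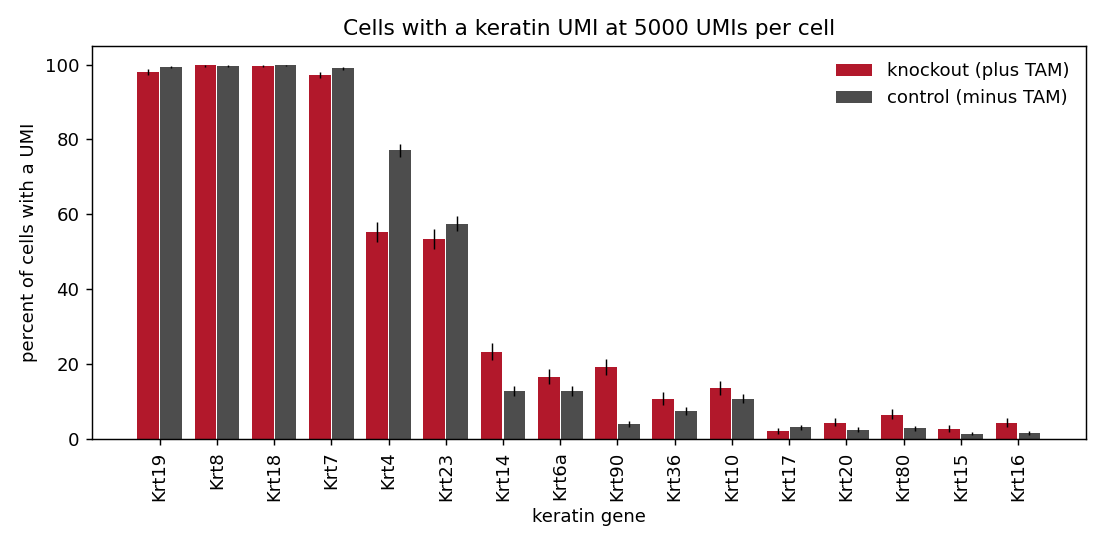
Percent of cells with at least 1 UMI of each of the 16 measured keratins after thinning to 5000 UMIs, for 1387 knockout and 2487 control cells, with exact 95% counting intervals. Bars of Krt19, Krt8, Krt18 and Krt7 are near the top in both libraries, Krt4 is lower in the knockout library and Krt90 and Krt14 are higher.

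Which keratins occur in the same cell was described for the 325 pairs among the 26 genes, as the number of thinned cells with both over the number that the product of their shares gives. In 123 pairs that product gave 5 or more cells in both libraries. Most of these could not have reached 2. Krt19, Krt8, Krt18 and Krt7 were each found in 97.3% or more of the cells of either library, so their pairs stay near 1. Krt4 and Krt23, each found in 53.4% or more of the cells of either library, cannot reach 2 with any gene. Of the 123 pairs, Krt14 and Krt6a were the single pair at 2 or more in both. They shared 111 knockout cells where the product gave 53.3 (2.08 times) and 114 control cells where it gave 40.5 (2.81 times). Krt14 and Krt90 shared 104 knockout cells (1.69 times) and 27 control cells (2.21 times). Krt16 formed 2 pairs just under the 5-cell minimum in control cells. It shared 30 knockout cells (3.08 times) and 21 control cells (4.42 times) with Krt6a, where the product gave 4.75 control cells. With Krt14 it shared 35 knockout cells (2.55 times) and 19 control cells (4.04 times), where the product gave 4.70 control cells. None of the 123 pairs was at 0.5 or less in both libraries, which pairs with Krt19, Krt8, Krt18 or Krt7 could not have been. Krt10 and Krt80 came lowest, with 6 knockout cells (0.49 times) and 4 control cells (0.54 times). Krt23 and Krt14 shared fewer cells than the product in both, 122 knockout cells (0.71 times) and 155 control cells (0.85 times). These are descriptions of cells that share a library, with no test.

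**Figure D4:**
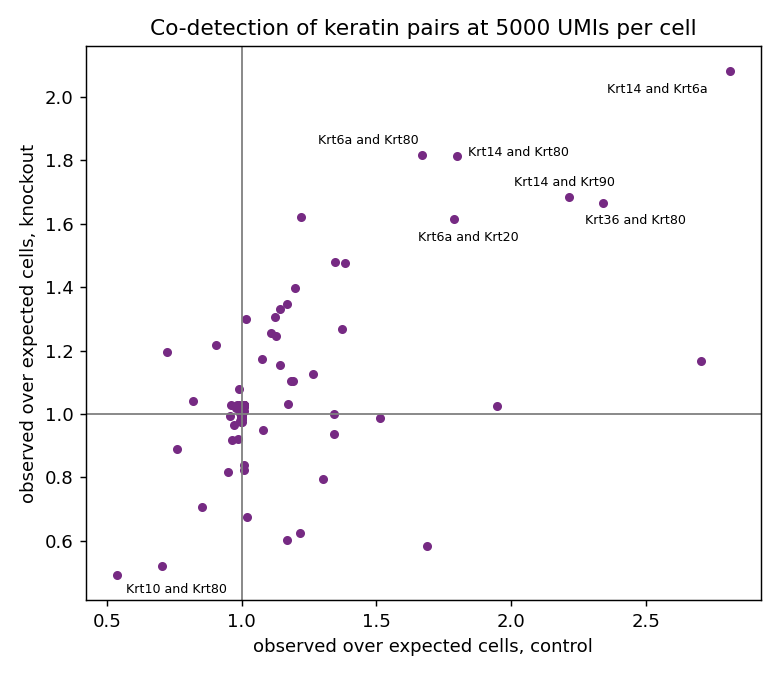
Cells with both keratins over the number given by the product of their shares, knockout library on the vertical axis and control library on the horizontal axis, for 123 pairs at 5000 UMIs per cell; lines mark 1. Most pairs hold Krt19, Krt8, Krt18 or Krt7, which are found in nearly all cells, and so lie near 1 in both libraries. The pair of Krt14 and Krt6a lies at the upper right, at 2.08 in knockout and 2.81 in control cells.

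Levels of the abundant keratins moved together across cells. Pearson's r of log levels, ln(1 + UMIs per 10000), was 0.75 in knockout and 0.71 in control cells for Krt19 and Krt7, and 0.72 in knockout and 0.65 in control cells for Krt8 and Krt18, the partners that neighbour each other on chromosome 15. Krt14 and Krt6a had r of 0.39 in knockout and 0.45 in control cells. Krt23 had negative values against several of them, with r against Krt4 of -0.20 in knockout and -0.15 in control cells, and against Krt14 of -0.19 in knockout and -0.10 in control cells. All of these are over 1481 knockout and 2629 control cells, which share a library and differ in depth.

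The genes outside the family most like a keratin were picked by the mean of both libraries' r. For Krt19 these were S100a11 (r of 0.70 in knockout and 0.70 in control cells), 2200002D01Rik and S100a14. For Krt8 they were Anxa2 (0.62 in knockout, 0.50 in control), S100a14 and S100a16, and for Krt18 S100a6 (0.42 in knockout, 0.39 in control), Gprc5a and Anxa5. Krt7 had S100a11 (0.68 in knockout, 0.63 in control), Msln and Ly6a, the Sca-1 surface protein. Krt4 had 2200002D01Rik (0.42 in knockout, 0.54 in control), Ccnd1, which encodes cyclin D1, and Serpinb7. Krt14 and Krt6a had the same 3 genes, namely Anxa8, Lor, which encodes the cornified envelope protein loricrin, and Gabrp, with r between 0.33 and 0.45. Krt20 had Clca4a (0.68 in knockout, 0.26 in control), Muc3 (0.60 in knockout, 0.23 in control) and Lypd8 (0.54 in knockout, 0.089 in control), genes of surface colonocytes, and its mean r came mostly from the knockout library, where 8 of the 10 cells richest in Krt20 had a shared barcode. The nearest genes of Krt23 were Sypl, Otop1 and Pllp (mean r of 0.33, 0.32 and 0.32). The mean r was at most 0.25, too weak to be read, for Krt90 (Mal, Ptgs1 and Stra6), Krt36 (Hspb8, Stra6 and Wnt10a), Krt10 (Hsp90aa1, Dnajb1 and Btg1), Krt17 (Col2a1, Hspb8 and Stra6) and Krt80 (Lor, Anxa3 and Tgm1).

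The balance of type I to type II keratins was higher in the knockout library. Type I UMIs over type II UMIs came to 1.46 in knockout and 1.27 in control cells, and the median over cells was 1.57 in knockout and 1.29 in control cells. Type I keratins summed to 8827 CPM in knockout and 7533 CPM in control cells (ratio 1.17), and type II keratins to 6058 CPM in knockout and 5938 CPM in control cells (ratio 1.02). Krt19 and Krt18 carry most of the type I sum, and Krt8 and Krt7 most of the type II sum. The lower Krt4 of the knockout library (415 CPM against 814 CPM) adds to the difference. The balance was higher in the knockout cells of most clusters described below. It was close in the squamous-like cluster, at 1.402 in knockout and 1.395 in control cells. In the Spp1 and Asprv1 cluster the order was the opposite, at 1.29 in knockout and 1.39 in control cells. It was also the opposite in a small cluster led by Ccl5 and S100a9, at 1.11 in 22 knockout and 1.48 in 8 control cells. The difference between the libraries shrank when control cells were weighted by cluster, as the last section gives. Within the squamous genes the balance was 0.348 in knockout and 0.141 in control cells, and without Krt4 it was 1.09 in knockout and 1.64 in control cells. Removing 1 gene thus turned the direction of the squamous balance. The squamous type II sum without Krt4 was 196 CPM in knockout and 76.2 CPM in control cells. Of this, Krt90 made 87.7 CPM in knockout and 12.2 CPM in control cells. The balance without Krt4 therefore leans on Krt90, whose role is less clear.

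Cells were clustered on genes other than keratins, which gave 12 clusters, and most clusters came largely from 1 library. A squamous-like cluster, led by Inhba, Sprr1a, S100a7a, Hba-a2 and the chemokine gene Ccl5, held 313 knockout and 42 control cells. Its raised squamous markers were Sprr1a, Sprr2a3, Asprv1, Tmprss11d, Lor, Mal and Anxa8. The fetal-like markers Ly6a, Clu, Anxa1 and Ctgf were raised there as well. Trp63 and Dsc3, also on the squamous list, had 0 UMIs in both libraries, so the name is tentative. A colonocyte-like cluster, led by Clca4a, Muc3 and Car1, held 28 knockout and 4 control cells, and 22 of the 28 had a shared barcode. A deep crypt secretory and Paneth-like cluster, led by Defa30, Reg4 and Ttr, held 17 knockout and 525 control cells. Of the markers listed for that type, Ang4, Itln1 and Reg4 were raised there, and Lyz1, Defa24, Mmp7 and Pnliprp2 were not. The goblet markers Tff3 and Agr2 and the stem marker Smoc2 were raised there as well, so this name is also tentative. A further cluster led by G2 and M phase genes held 129 knockout and 476 control cells, and 8 clusters were left unnamed. The S phase markers Mcm2, Mcm3, Mcm5, Mcm6, Pcna, Rrm2, Gins2, Cdc6 and Slbp were raised in that G2 and M phase-like cluster as well. Its name, used below, therefore does not set it apart from S phase. With 1 library per group, a cluster mostly of 1 library may be that library and not a cell type.

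In the knockout library 6 squamous keratins were highest in the squamous-like cluster, namely Krt14, Krt6a, Krt90, Krt15, Krt16 and Krt80. There Krt14 stood at 311 CPM in knockout and 117 CPM in control cells, Krt6a at 248.6 CPM in knockout and 84.6 CPM in control cells and Krt90 at 151 CPM in knockout and 29.2 CPM in control cells. In the control library Krt14 (138 CPM) and Krt6a (104 CPM) were higher in the Aqp1 and Isx cluster, described below, and Krt90 was higher in the Spp1 and Asprv1 cluster (70.1 CPM). Krt15 stood at 3.65 CPM in control cells of the squamous-like cluster, under its 4.50 CPM over all control cells. The squamous-like cluster held 57.0% of knockout and 3.07% of control UMIs of Krt14, 67.6% of knockout and 3.17% of control UMIs of Krt6a, 75.7% of knockout and 6.02% of control UMIs of Krt16, and 82.0% of knockout and 1.62% of control UMIs of Krt15. Without its cells, a comparison added after seeing the data, the log2 ratio of Krt14 was -0.00024, that of Krt6a -0.45, that of Krt15 -0.06 and that of Krt16 0.02, so 3 of the 7 keratins counted as higher kept that size, namely Krt90, Krt20 and Krt80. Krt19, Krt18 and Krt7 were also high there, at 8032, 5594 and 3744 CPM in knockout cells and 9430, 6319 and 4196 CPM in control cells. The summed keratin log2 ratio, 0.14 over all cells, was -0.17 without that cluster.

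Krt4 peaked elsewhere. An unnamed cluster led by Aqp1 and Isx held 28 knockout and 784 control cells, and Krt4 stood there at 822 CPM in knockout and 1402 CPM in control cells. It held 3.89% of the knockout UMIs of Krt4 and 60.8% of the control UMIs. When control cells were weighted to the cluster shares of the knockout library, a comparison added after seeing the data, the log2 ratio of Krt4 was -0.18 in place of -0.97, and that of Krt90 was 1.35 in place of 2.84. That of Krt14 was 0.997, of Krt6a 1.26, of Krt15 1.82 and of Krt16 1.01, so these 4 passed the 1.5-fold size under this weighting and lost it without the squamous-like cluster. By this weighting 8 keratins were higher, a count with no background, since the share of all genes was not computed under it. The summed keratin log2 ratio was then -0.12. The weighted control level rests on 42 control cells for the squamous-like cluster and 4 for the colonocyte-like cluster.

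Within clusters, Krt4 stood at 584 CPM in knockout and 302 CPM in control cells of the squamous-like cluster, the opposite order to that over all cells. It stood at 309 CPM in knockout and 584 CPM in control cells in the G2 and M phase-like cluster and at 51.7 CPM in knockout and 106 CPM in control cells in the Prss56 and Pnliprp1 cluster. Krt90 kept its order in each of these. It stood at 101 CPM in knockout and 40.7 CPM in control cells of the Cxcl14 and Cadps cluster, at 55.7 CPM in knockout and 11.9 CPM in control cells in the G2 and M phase-like cluster, and at 11.3 CPM in knockout and 2.78 CPM in control cells in the Prss56 and Pnliprp1 cluster. In the Spp1 and Asprv1 cluster the levels were close, at 75.7 CPM in knockout and 70.1 CPM in control cells. Krt36 was highest in the Cxcl14 and Cadps cluster, at 50.7 CPM in knockout and 121 CPM in control cells, where its order was the opposite of that over all cells. Krt23 was highest in the Prss56 and Pnliprp1 cluster, at 517 CPM in knockout and 535 CPM in control cells, where Krt19 was low at 1056 CPM in knockout and 1042 CPM in control cells.

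Krt20 was concentrated in the colonocyte-like cluster, at 499 CPM in 28 knockout cells and 224 CPM in 4 control cells, against a median of 6.18 CPM over the clusters. Those 28 cells held 54.8% of its knockout UMIs, and all of the 10 richest knockout cells were among them. Krt8 was also highest there, at 7579 CPM in knockout and 6966 CPM in control cells. Without that cluster the log2 ratio of Krt20 was 0.996 in place of 1.98.

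**Figure D5:**
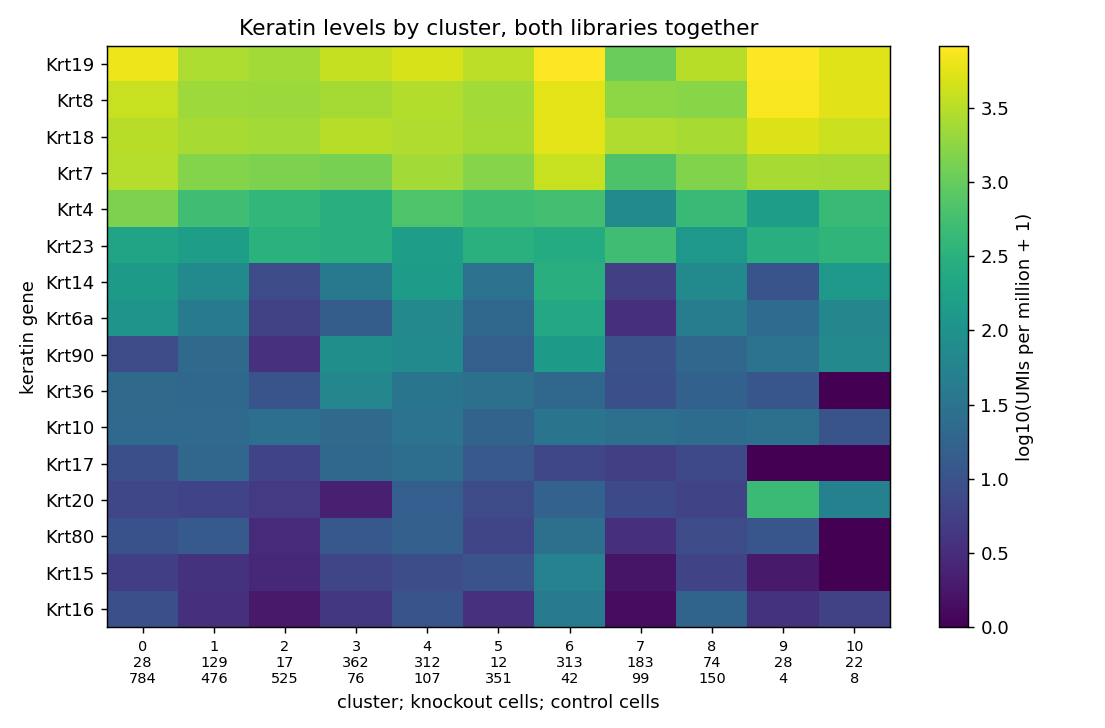
Level of the 16 measured keratins in each cluster of 30 or more cells, both libraries together, as log10 of CPM plus 1; under each cluster number stand its knockout cells and then its control cells. Cluster 6 is the squamous-like and cluster 9 the colonocyte-like one, and Krt14, Krt6a, Krt90, Krt15 and Krt16 are brightest in the first and Krt20 in the second.

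Genes that work with keratins were listed in 5 groups, each chosen with earlier results of these data known. Of 28 cornified envelope genes, which build the barrier of squamous cells, 10 were measured, 9 were higher in the knockout library and 0 lower, with a median log2 ratio of 1.14, against 8.12% higher and 10.7% lower of all measured genes and their median of -0.06. Tmprss11d, Sprr2b and Cst6 (22.8 CPM in knockout and 9.52 CPM in control cells) reached 10 CPM through the knockout library alone. They could not count as lower, so these counts and medians describe the 10 genes and support nothing. Without shared barcodes 6 of 10 were higher, against 6.54% of all measured genes, with a median of 0.87, and Sprr2a3 (0.29), Cst6 (0.54) and Sbsn (0.51) no longer reached 1.5-fold on the log2 scale. The largest were Tmprss11d (10.6 CPM in knockout and 0.510 CPM in control cells), Sprr1a (231 CPM in knockout and 13.8 CPM in control cells), Sprr2b (26.5 CPM in knockout and 5.26 CPM in control cells, uncertain because its family has near-identical copies) and Asprv1 (170 CPM in knockout and 41.4 CPM in control cells). The log2 ratio of Sprr1a was 4.07 over all cells and 3.42 without shared barcodes. Of 12 desmosome genes, which anchor keratin filaments at cell contacts, 9 were measured and 1 was higher, Dsp, which encodes desmoplakin, at 97.6 CPM in knockout and 62.7 CPM in control cells. This is 11.1% of 9 genes, near the 8.12% of all measured genes, and is no result about desmosomes. None was lower over all kept cells, and Perp came closest at 181 CPM in knockout and 268 CPM in control cells. Without shared barcodes Perp just passed the 1.5-fold size, at 174 CPM in knockout and 260 CPM in control cells (log2 ratio -0.5851). So 1 of 9 was then lower, against 11.3% of all measured genes.

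Of 15 genes of hemidesmosomes and filament linkers, 11 were measured, 3 were higher (27.3%, against 8.12% of all measured genes) and 1 lower (9.09%, against 10.7%). Among the higher ones were Lama3 (18.2 CPM in knockout and 1.78 CPM in control cells) and Lamb3 (87.4 CPM in knockout and 52.3 CPM in control cells), which encode laminin chains. Lama3 reached 10 CPM through the knockout library alone, so it could not count as lower. The lower one was Krtcap2, named for keratinocytes but a subunit of the enzyme that adds sugars to proteins, at 173 CPM in knockout and 330 CPM in control cells. Of 18 other intermediate filament genes, 5 were measured, with 1 higher and 1 lower. Vim, the filament protein of mesenchymal cells, was higher at 338 CPM in knockout and 165 CPM in control cells, and Lmnb2 was lower at 10.9 CPM in knockout and 24.0 CPM in control cells. Of 30 regulators of keratin genes, 24 were measured, 4 were higher (16.7%, against 8.12% of all measured genes) and 3 lower (12.5%, against 10.7%), with a median log2 ratio of -0.20. Counts this small, of 5 to 24 genes, show nothing particular to the hemidesmosome, other filament or regulator lists. The 4 largest were Cdx2, the transcription factor of intestinal identity, at 25.3 CPM in knockout and 92.8 CPM in control cells, its relative Cdx1 at 25.8 CPM in knockout and 55.3 CPM in control cells, Hes1 at 1038 CPM in knockout and 558 CPM in control cells and Ahr at 79.5 CPM in knockout and 43.6 CPM in control cells.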

How the data were processed

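Single-cell libraries were made with 10x Chromium 3′ chemistry, per the labels' protocols, and the deposited values are whole UMI counts per gene and barcode made by the authors in Cell Ranger, version 3.1.0 in the file headers, with mm10 as the build per the submitters' processing notes. No source used here gives the annotation release. Kept barcodes had 1000 or more genes, 2000 or more UMIs and a mitochondrial share of 20% or less, and the highest Scrublet scores (0.8% per 1000 cells, scanpy 1.11.5) were removed as doublets. Counts were summed over kept cells and scaled to CPM, without a pseudocount. Genes of 10 or more CPM in either library were measured, and 1.5-fold is a size threshold, not a test. Ratio intervals are exact conditional binomial, CPM intervals Poisson, all at 95%. Scripts were tested on simulated data. Clusters used Leiden (leidenalg 0.10.2) with keratins left out, and TMM used edgeR 4.0.16. Of 26 keratins with 50 or more UMIs, 4 (Krt14, Krt16, Krt17 and Krt18) share 50-base windows of their last 400 transcript bases with another gene, in 1.43% to 6.27% of windows. Krt8, Krt7, Krt6a, Krt90, Krt10, Krt80, Krt32, Krt12 and Krt5 overlap a gene on the other strand. Named genes are all keratins with 50 or more UMIs, N6amt1, up to 4 of the largest ratios of each list past 1.5-fold, and the 3 nearest genes per keratin of 1000 or more UMIs; Krt6b and other genes were named after their values were seen. Some genes that the rule names are not reported here. Members and lists were chosen with earlier results of these data known.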

Additional observations from a re-analysis of the deposited data

How the results depend on the processing

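With 1 library per group nothing could be left out as a replicate. No paired analysis was possible because each group is 1 library. Of 7 keratins higher, 4 (Krt14, Krt90, Krt20 and Krt80) passed without the 10 richest cells of each keratin (Krt6a at 0.56 and Krt15 at 0.18 lost the fold, and Krt16 kept 1.55 but fell under 10 CPM), 3 at a minimum of 50 CPM, which tests fewer genes, and 3 without the squamous-like cluster. In that last setting the log2 ratios of Krt14 (-0.00024), Krt6a (-0.45) and Krt15 (-0.062) turned negative. Krt4 was the 1 lower keratin, which became 0 at a 2-fold threshold, and 2 were lower when control cells were weighted by cluster, Krt36 (-0.95) and Krt17 (-1.15). The summed keratin log2 ratio of 0.14 was 0.15 with no cell filter, no doublet removal or the mean of CPM per cell, 0.073 without shared barcodes, 0.11 with TMM, 0.12 without the richest cells or the colonocyte-like cluster, -0.17 without the squamous-like cluster and -0.12 with weighted control cells. The log2 difference in type I over type II of 0.20 was 0.18 without shared barcodes, 0.21 as the mean per cell, 0.24 without the squamous-like cluster and 0.036 with weighted control cells. The median share ratio of 16 keratins, 1.28, was 1.12 at 2000 UMIs, 1.19 at 10000 and 1.14 without thinning. Pairs at 1.5 or more in both libraries numbered 6, against 12 at 10000 UMIs and 31 without thinning. Keratins 5-fold above the median cluster numbered 5, against 3 at Leiden resolution 0.5. The cause was not tested in any of these. The other 50 comparisons of summary values moved by less than the counting error or, for counts, lay within 1.5 times, among them 5 keratins higher at a 2-fold threshold and 8 with weighted control cells. The 26 keratins with 50 or more UMIs numbered 29 at a minimum of 20 UMIs, 19 at 200 and 24 to 26 over the cell settings. Comparisons with weighted cells or without a cluster were added after seeing the data. Shares over all genes were computed for the main setting and without shared barcodes only. Counts of higher or lower keratins under other settings therefore have no background. Depth limits the 10 keratins of 50 or more UMIs under 10 CPM, whose intervals are wide.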
